A study of Mus musculus with 18 samples.

Results

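A set of 9 transport genes of the intestinal epithelium was followed in whole jejunum of irradiated mice. They are the chloride, bicarbonate, sodium and potassium transport genes Cftr, Slc12a2, Slc26a3, Slc26a6, Slc9a3, Slc9a2, Scnn1a, Atp1b1 and Kcnq1, chosen by name and matched by symbol to the Ensembl gene IDs of the deposited count table. All 9 were found among its 54532 genes, and all 9 were among the 16257 genes with enough reads to be tested. The mice were C57BL/6, an inbred strain, aged 8 to 12 weeks. In the FLASH group (7 libraries), a single 15 Gy dose was given to the whole abdomen at an ultra-high dose rate. In the CONV group (5 libraries), the same dose was given at the conventional rate. The control group (6 libraries) received no radiation. Jejunum was taken 16 h after irradiation in both irradiated groups, and RNA was sequenced from the whole tissue, which holds villus and crypt epithelium together with muscle, vessels, immune cells and connective tissue. Nothing in the labels ties each library to a separate mouse, and the p-values here cover only the variation from library to library.

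The small intestine absorbs and secretes salt, and water follows. Villus enterocytes take up sodium chloride through apical sodium/hydrogen exchangers coupled to chloride/bicarbonate exchangers, while the sodium pump on the basolateral side keeps cell sodium low. Crypt cells secrete chloride through the apical channel CFTR, which a basolateral sodium, potassium and chloride cotransporter supplies and basolateral potassium channels sustain. The balance between both routes sets how fluid the gut content is, and diarrhoea is a common effect of abdominal irradiation.

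Libraries held 23.1 to 30.2 M estimated counts in FLASH, 19.9 to 27.0 M in CONV and 24.3 to 27.8 M in controls. Levels are given as CPM, read counts scaled to a common library size after correction by TMM factors, which were 0.826 to 0.948 in FLASH, 0.844 to 1.11 in CONV and 1.06 to 1.25 in controls. Libraries also differed in how their signal depended on transcript length. The slope of log2 CPM per doubling of transcript length was -0.34 to 0.27 in FLASH, -0.43 to 0.04 in CONV and -0.41 to 0.32 in controls, with FLASH 1, CONV 6 and control 6 the lowest of their groups. Villus enterocyte markers were far more abundant after irradiation, with a summed level over 14 genes of 59140 to 103300 CPM in FLASH and 57640 to 104700 CPM in CONV, against 19360 to 43660 CPM in controls. Of these 14 markers, 9 rose and 0 fell in FLASH against control, and 7 rose and 0 fell in CONV against control. Among all genes tested, 16.7% rose in FLASH against control and 10.2% in CONV against control. The summed level of 8 crypt base stem cell markers was 77.1 to 153 CPM in FLASH and 70.1 to 188 CPM in CONV, against 669 to 1158 CPM in controls. The jejunal enterocyte marker Sis, which encodes sucrase-isomaltase, averaged 4368 CPM in FLASH, 4409 CPM in CONV and 2634 CPM in controls. The enterocyte genes Fabp2 and Alpi averaged 8416, 14870 and 4448 CPM and 1001, 570 and 554 CPM in that order. Vil1 had 2387, 1883 and 2202 CPM. The colonic marker Car1 was at 0 in every library, but the sum of 5 colon markers was 2.34 to 24.4 CPM. That of 5 ileum markers was 771 to 1517 CPM in FLASH, 703 to 1275 CPM in CONV and 639 to 1048 CPM in controls. Mean log2(CPM + 1) of the ileum markers was 7.52 to 7.90 in CONV 2, FLASH 6 and FLASH 7 and 5.05 to 6.69 elsewhere. The part of gut segment in the results was not tested. In bulk tissue, fewer cells of a type and less RNA per cell cannot be told apart, and the part of these shifts in cell markers in the results that follow was not tested.

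Each comparison was tested with edgeR's quasi-likelihood test, and a gene was called where its p, adjusted over all 16257 genes, was under 0.05. FLASH against CONV asked where the dose rates differed. It called 4 of the 9 genes, all higher in FLASH (Slc26a3, Slc26a6, Slc9a3 and Slc9a2), beside 19.8% of all genes tested (9.88% higher, 9.91% lower). FLASH against control called 6 of 9, with Slc26a3, Slc26a6, Scnn1a and Atp1b1 higher and Slc12a2 and Kcnq1 lower, beside 37.7% of all genes (16.7% higher, 21.0% lower). CONV against control called 4 of 9, with Slc26a3 higher and Slc12a2, Kcnq1 and Slc9a2 lower, beside 22.2% of all genes (10.2% higher, 12.0% lower). The libraries of the groups compared did not overlap for 2 of the 9 genes in FLASH against CONV (8.53% of all genes), 2 in FLASH against control (13.8%) and 4 in CONV against control (10.4%). Cftr was called in none of the 3 comparisons. The median log2 fold change of the 9 genes was 0.59 in FLASH against CONV, 0.34 in FLASH against control and -0.33 in CONV against control, where all genes tested had medians of -0.02, -0.07 and -0.04. The irradiated groups share their controls, so the last 2 comparisons are not independent of each other. The 9 genes, like the lists of related genes below, were chosen with earlier results of these data known. Their shares and medians thus do not test any set against all genes.

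**Figure D1:**
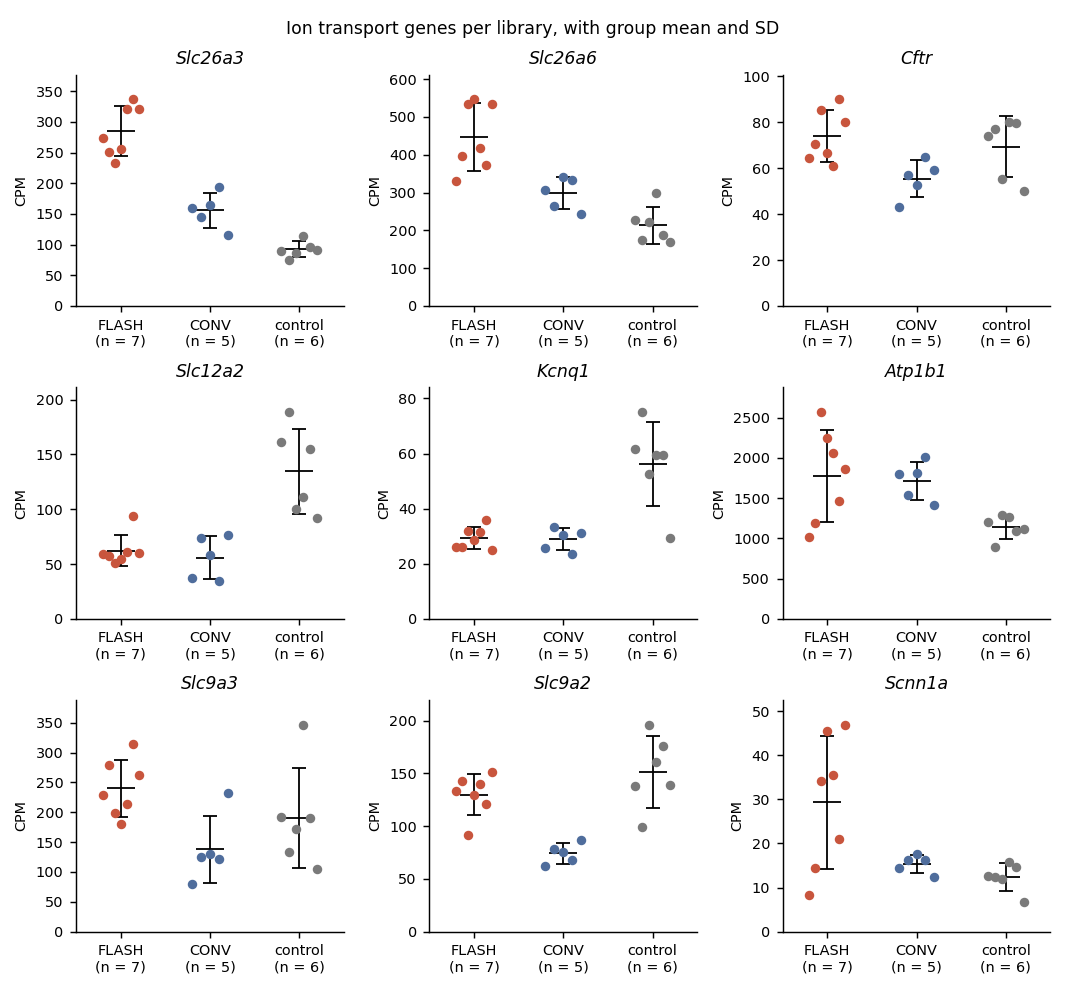
Level of each of the 9 genes in CPM (vertical axes, from 0) in every FLASH, CONV and control library (points), with the group mean and SD (bars). Slc26a3 steps down from FLASH through CONV to control with no overlap, Slc12a2 and Kcnq1 are low in both irradiated groups, and Scnn1a spreads from 8.23 to 46.9 CPM within FLASH.

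Slc26a3 and Slc26a6 encode apical anion exchangers that bring chloride into the enterocyte in return for bicarbonate. SLC26A3 is the exchanger whose loss causes congenital chloride diarrhoea in humans, and SLC26A6 also carries oxalate. Slc26a3 lies on chromosome 12 (31390871 to 31473917, + strand, mm10) and Slc26a6 on chromosome 9 (108853283 to 108913049, + strand). The sequences around the RefSeq transcription start of both are shown because both genes were higher in FLASH than in CONV and control. They run from 250 bases before to 50 bases after the start, 5′ to 3′ on the + strand of GRCm38.p6, Slc26a3 at chr12:31437969-31438268 and Slc26a6 at chr9:108853793-108854092. Both windows lie inside the annotated gene spans, whose first transcripts start farther upstream. Capitals mark, in Slc26a3, a match to CAAAGNNCA (a form of the HNF4 site), both matches to GTTAAT (1 arm of the HNF1 site) and a TATAAA box, and in Slc26a6 a match to GGGCGG (the Sp1 and KLF site) on the opposite strand.
Slc26a3: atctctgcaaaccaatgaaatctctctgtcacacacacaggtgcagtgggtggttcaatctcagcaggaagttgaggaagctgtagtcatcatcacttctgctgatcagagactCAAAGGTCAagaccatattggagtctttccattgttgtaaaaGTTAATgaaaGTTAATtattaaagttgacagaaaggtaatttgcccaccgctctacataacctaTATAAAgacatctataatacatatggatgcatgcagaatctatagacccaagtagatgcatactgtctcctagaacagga
Slc26a6: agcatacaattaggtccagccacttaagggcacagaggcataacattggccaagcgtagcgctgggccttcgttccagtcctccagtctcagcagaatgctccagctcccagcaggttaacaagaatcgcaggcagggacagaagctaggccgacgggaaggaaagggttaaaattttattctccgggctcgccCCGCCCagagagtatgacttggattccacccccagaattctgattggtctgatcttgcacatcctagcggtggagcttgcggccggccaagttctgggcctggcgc

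Counted from the start, the TATAAA of Slc26a3 began at base -30, the GTTAAT matches at -94 and -84, and the HNF4 match at -136. On either strand, TATAAA was found in 13.6% of the 32544 RefSeq promoter windows, CAAAGNNCA in 6.38%, GTTAAT in 7.13% and GGGCGG in 35.9%. GTTAAT was searched after the Slc26a3 sequence had been seen, and it was in none of the other 4 windows available. The searched motifs do not overlap one another in the 2 windows shown. The table held windows for 5 of the 9 genes (Atp1b1, Cftr, Slc26a3, Slc26a6 and Slc9a3). GGGCGG was found 6 times in Cftr, 3 times in Slc9a3, 2 times in Atp1b1 and 1 time in Slc26a6, and not in Slc26a3, whose window had a GC content of 39.3%, against 56.0% in Slc26a6 and a median of 53.0% over all windows. TTTATNG, a CDX2 form (10.8% of windows), was present in none of the 5. These matches describe letters and not binding.

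Slc26a3 was the gene of the set that separated the groups most cleanly. Its lowest, median and highest levels were 233, 275 and 337 CPM in FLASH. The CONV libraries had 160.3, 145, 165, 194 and 115 CPM, and the controls had 75.2, 90.8 and 114 CPM at the lowest, median and highest. No library of 1 group overlapped another group, in any of the 3 comparisons, although CONV 7 (115 CPM) and control 4 (114 CPM) were nearly level. Slc26a3 averaged 285 ± 41.0 CPM in FLASH (SD, n = 7), 156 ± 28.8 CPM in CONV (n = 5) and 92.4 ± 12.9 CPM in controls (n = 6). FLASH libraries were higher than CONV by a log2 fold change of 0.87 ± 0.15 (SE; 1.83-fold; adjusted p = 0.00104). They were higher than control by 1.62 ± 0.14 (3.08-fold; adjusted p = 3.05e-07), and CONV was higher than control by 0.75 ± 0.15 (1.69-fold; adjusted p = 0.00211). All 3 calls held under every alternative tried, with a log2 fold change of 0.73 to 0.97 in FLASH against CONV.

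Slc26a6 had 330.5, 418 and 547 CPM at the lowest, median and highest in FLASH. Its CONV levels were 306, 265, 340.1, 334 and 245 CPM, and controls had 170.3, 205 and 299.6 CPM. FLASH lay wholly above control, while the lowest FLASH library, FLASH 1, fell among the CONV libraries. FLASH was higher than control by 1.07 ± 0.17 (log2, SE; 2.10-fold; adjusted p = 8.21e-05) and higher than CONV by 0.59 ± 0.17 (adjusted p = 0.0239). In CONV against control the log2 fold change was 0.48 ± 0.18 (adjusted p = 0.0558). The call in FLASH against CONV was lost without CONV 3 (adjusted p = 0.0595) or CONV 7 (0.072), with each library's trend on transcript length and GC content removed by an offset (0.36, adjusted p = 0.134), with library totals in place of TMM (0.44, adjusted p = 0.0651) and with genes of at least 1 count kept (adjusted p = 0.0637). The CONV call against control was gained with that offset (0.79, adjusted p = 0.00345) and without control 4 (0.60, adjusted p = 0.0241) or FLASH 1 (adjusted p = 0.045).

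The wider list of chloride and bicarbonate transport held 20 other genes, of which 18 were tested. In FLASH against CONV, 3 were higher and 1 lower. In FLASH against control, 5 were higher and 0 lower, and in CONV against control, 3 were higher and 0 lower. The shares called, 22.2, 27.8 and 16.7%, stood beside 19.8, 37.7 and 22.2% of all genes, near the background between the dose rates and below it against control. The list medians were 0.29, 0.18 and 0.01 on the log2 scale, where all genes had -0.02, -0.07 and -0.04. Its leading members were also SLC26 exchangers. Slc26a4, which encodes the chloride/bicarbonate exchanger pendrin, had 3.30, 5.58 and 10.1 CPM at the lowest, median and highest in FLASH. It had 1.15, 0.837, 0.745, 1.90 and 0.177 CPM in the CONV libraries and 0.208, 0.329 and 0.594 CPM in controls. The level was low, but every FLASH library exceeded every other library. FLASH libraries were higher than CONV by 2.74 ± 0.44 (adjusted p = 0.00069) and higher than control by 4.15 ± 0.44 (adjusted p = 2.08e-06).

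Slc26a1, a sulfate and oxalate exchanger, had 255 counts over the 7 FLASH libraries, 11 over the 5 CONV libraries and 0 over the 6 controls. The control count of 0 makes its level in FLASH at least 89.7-fold higher and in CONV at least 5.25-fold higher, taking 3 counts over the control group as the limit that 0 counts allow, for counting error only. With Slc26a1 at these bounds, the list medians were still 0.18 and 0.01. FLASH exceeded CONV with no overlap, from 0.384 to 3.36 CPM in FLASH against 0 to 0.262 CPM in CONV. Slc4a4, the basolateral sodium bicarbonate cotransporter, averaged 134.5 CPM in FLASH and 71.1 CPM in CONV (log2 fold change 0.92 ± 0.23, adjusted p = 0.0109). Slc4a7, another sodium bicarbonate cotransporter, averaged 76.6 CPM in FLASH, 52.7 CPM in CONV and 30.9 CPM in controls. It was higher than control in FLASH by 1.31 ± 0.25 (adjusted p = 0.000444) and in CONV by 0.77 ± 0.26 (adjusted p = 0.041). In CONV against control, the Slc4a7 call was lost without any single control but control 6 or without CONV 5, 6 or 7 (adjusted p up to 0.134), and the call of Slc26a4 (1.41 ± 0.45, adjusted p = 0.0325) without control 2, 3 or 5 or CONV 2 or 6 (adjusted p up to 0.144). Slc26a1 was not called in that comparison without CONV 2 (adjusted p = 0.0685), and Slc4a4 was not called in FLASH against CONV with library totals (adjusted p = 0.0561).

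Cftr, Slc12a2 and Kcnq1 encode the secretory route. CFTR is the apical chloride channel that cyclic AMP and cyclic GMP signalling opens. Slc12a2 encodes the basolateral cotransporter NKCC1, which loads chloride into the cell, and Kcnq1 encodes the potassium channel that keeps the cell negative during secretion. Slc12a2 and Kcnq1 fell in both irradiated groups and Cftr was not called. Slc12a2 had 50.6, 58.8 and 94.0 CPM at the lowest, median and highest in FLASH. Levels in the CONV libraries were 37.0, 73.9, 58.2, 34.1 and 76.4 CPM, and controls had 91.7, 133 and 189 CPM. CONV lay wholly below control, and FLASH did so except that FLASH 7 (94.0 CPM) exceeded control 6 (91.7 CPM). Slc12a2 was lower than control by -1.11 ± 0.22 in FLASH (log2, SE; adjusted p = 0.000729) and by -1.27 ± 0.25 in CONV (adjusted p = 0.00181). Against CONV, FLASH differed by 0.15 ± 0.23 (adjusted p = 0.684).

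Kcnq1 had 24.9, 28.7 and 35.8 CPM at the lowest, median and highest in FLASH. CONV libraries gave 25.7, 33.3, 30.3, 23.6 and 31.1 CPM, and controls had 29.2, 59.5 and 75.0 CPM. Control 6 (29.2 CPM) lay inside the irradiated range and the other 5 controls lay above it, from 52.6 CPM upward. Kcnq1 averaged 29.3 ± 3.96 CPM in FLASH (SD, n = 7), 28.8 ± 4.01 CPM in CONV (n = 5) and 56.3 ± 15.2 CPM in controls (n = 6). It was lower than control by -0.94 ± 0.17 in FLASH (adjusted p = 0.000292) and by -0.97 ± 0.19 in CONV (adjusted p = 0.00171), with a difference between FLASH and CONV of 0.02 ± 0.18 (adjusted p = 0.943). The calls of Slc12a2 and Kcnq1 against control held under every alternative tried.

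Markers of crypt, dividing, muscle, connective tissue and immune cells also fell in the irradiated groups. Among all genes tested, 21.0% fell in FLASH against control and 12.0% in CONV against control. The marker lists were not tested against these shares. Of 8 crypt base markers, 7 fell in FLASH against control and 4 in CONV against control, and of 8 proliferation markers, 4 fell in each. Of 6 Paneth cell markers, 5 fell in FLASH against control and 0 in CONV against control, where 1 rose. Of 8 smooth muscle markers, 8 fell in FLASH against control and 4 in CONV against control, with summed levels of 372 to 1189 CPM in FLASH and 160.4 to 1116 CPM in CONV, against 1141 to 3438 CPM in controls. Of 6 fibroblast markers, 4 fell in FLASH against control and 3 in CONV against control. Of 6 leukocyte markers, 5 fell in each, with summed levels of 1228 to 2590 CPM in FLASH and 531 to 1576 CPM in CONV, against 1686 to 3885 CPM in controls. The part of these markers in the lower Slc12a2 and Kcnq1 was not tested. The genes whose log2 CPM was most like Slc12a2 over the 18 libraries were the stromal genes Sdc2 (Pearson r = 0.958), Col14a1 (0.949) and Col12a1 (0.937), and those most like Kcnq1 were Lmnb1 (0.98), Nup210 (0.978) and Rcc2 (0.975), which encode a nuclear lamin, a nuclear pore protein and a chromatin-bound exchange factor. Lmnb1 averaged 24.6 CPM in FLASH, 23.7 CPM in CONV and 56.1 CPM in controls. Slc12a2 and Kcnq1 had r = 0.904 with each other. These correlations describe libraries that share the group differences and are given without a test.

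Cftr had 61.1, 70.7 and 89.9 CPM at the lowest, median and highest in FLASH. The CONV libraries had 43.2, 56.9, 52.6, 64.7 and 59.1 CPM, and controls had 50.2, 75.5 and 80.2 CPM. The groups overlapped in all 3 comparisons. FLASH differed from CONV by 0.42 ± 0.15 (log2, SE; adjusted p = 0.0582) and from control by 0.09 ± 0.14 (adjusted p = 0.643), and CONV differed from control by -0.33 ± 0.16 (adjusted p = 0.13). The FLASH against CONV value lay near the threshold, and it passed without FLASH 1 (adjusted p = 0.0473) or control 1, 2, 5 or 6 (adjusted p = 0.0329 to 0.0459), without FLASH 1, CONV 6 and control 6 together (0.52, adjusted p = 0.0174) and with DESeq2 (adjusted p = 0.0234). CONV was also lower than control without control 6 (-0.41, adjusted p = 0.036) and without those 3 libraries together (-0.43, adjusted p = 0.0372). With library totals CONV was lower too (-0.55, adjusted p = 0.0342). The length and GC offset gave -0.125 in CONV against control (adjusted p = 0.439) and 0.268 in FLASH against CONV (adjusted p = 0.0891). FLASH against CONV was also 0.268 with library totals (adjusted p = 0.283) and 0.314 with a replicate block (adjusted p = 0.29).

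**Figure D2:**
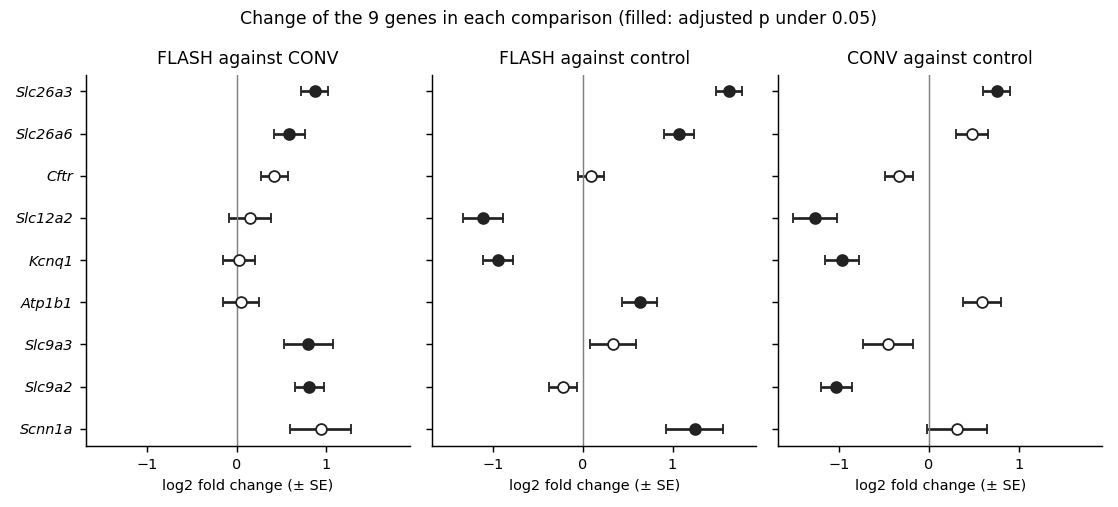
Log2 fold change with its SE (horizontal axes, first group over second) of each of the 9 genes in FLASH against CONV, FLASH against control and CONV against control, where filled points had an adjusted p under 0.05. Slc12a2 and Kcnq1 sit near -1 in both comparisons with control and near 0 between the dose rates, while Slc9a2 sits at 0.81 in FLASH against CONV and at -1.03 in CONV against control.

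The potassium channel list held 16 genes, of which 14 were tested. In FLASH against control, 2 were higher and 8 lower, in CONV against control, 0 were higher and 6 lower, and in FLASH against CONV, 2 were higher and 2 lower. The shares called were 71.4, 42.9 and 28.6%, beside 37.7, 22.2 and 19.8% of all genes, and the medians were -1.40, -0.75 and -0.17, in that order. Kcne3 encodes the small subunit that joins KCNQ1 in intestinal crypts and holds the channel open, and its level was lowest in FLASH, intermediate in CONV and highest in controls. It had 5.98, 8.98 and 10.5 CPM at the lowest, median and highest in FLASH, 17.5, 18.3, 12.6, 20.1 and 28.2 CPM in the CONV libraries, and 27.7, 43.7 and 75.0 CPM in controls. FLASH lay wholly below both other groups. FLASH was lower than control by -2.46 ± 0.22 (adjusted p = 4.74e-07) and lower than CONV by -1.21 ± 0.23 (adjusted p = 0.00192), and CONV was lower than control by -1.26 ± 0.24 (adjusted p = 0.00171). Kcnq1, its partner, differed between the dose rates by 0.02 ± 0.18. Cell markers moved in FLASH against CONV too. Of 6 Paneth cell markers, 5 were lower in FLASH (list median -1.08), with summed levels of 4197 to 12160 CPM in FLASH against 10990 to 19380 CPM in CONV. Of 8 crypt base markers, 4 were lower (median -0.6), with summed levels that overlapped. Of 6 enteroendocrine markers, 4 were higher, with summed levels of 291 to 358 CPM in FLASH against 166.5 to 208 CPM in CONV. Among all genes tested, 9.88% were higher and 9.91% lower in FLASH than in CONV. The part of these markers in the Kcne3 difference was not tested.

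Kcnn4, the calcium-activated potassium channel of secretory epithelium, averaged 7.81 CPM in FLASH and 8.27 CPM in CONV, against 28.6 CPM in controls, with both irradiated groups wholly below control (adjusted p = 1.86e-05 for FLASH and 0.000313 for CONV). Kcnmb1, the smooth muscle subunit of the BK channel, fell by 2.47 in FLASH and by 1.38 in CONV on the log2 scale against control (adjusted p = 1.85e-05 and 0.0105). The leak-type potassium channel genes Kcnk5 and Kcnk1 went the other way. Kcnk5 averaged 142 CPM in FLASH, 73.7 CPM in CONV and 69.3 CPM in controls, and FLASH was higher than CONV by 0.95 ± 0.16 (adjusted p = 0.00105) with no overlap. Kcnk1 averaged 61.3 CPM in FLASH, 31.1 CPM in CONV and 27.0 CPM in controls, and FLASH was higher than CONV by 0.98 ± 0.19 (adjusted p = 0.00211), again with no overlap.

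Slc9a3 and Slc9a2 encode NHE3 and NHE2, apical exchangers that take up sodium in return for protons. NHE3 is the main sodium entry route of villus enterocytes for electroneutral salt uptake. Slc9a2 lies on chromosome 1 (40680574 to 40769273, + strand, mm10) and Slc9a3 on chromosome 13 (74121457 to 74169442, + strand). Slc9a2 fell in CONV against control and was higher in FLASH than in CONV. It had 91.4, 133 and 151 CPM at the lowest, median and highest in FLASH. Its CONV levels were 62.1, 78.6, 75.1, 67.9 and 87.2 CPM, and controls had 98.8, 149.7 and 196 CPM. Every CONV library lay below every FLASH and every control library, while FLASH and control overlapped. Against CONV, FLASH was higher by 0.81 ± 0.16 (log2, SE; 1.75-fold; adjusted p = 0.00292). CONV was lower than control by -1.03 ± 0.17 (adjusted p = 0.000503), and FLASH differed from control by -0.22 ± 0.15 (adjusted p = 0.269). The transcript length and GC offset took the FLASH against CONV value to 0.59 (adjusted p = 0.0568), and with library totals FLASH was lower than control (-0.59, adjusted p = 0.00462).

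Slc9a3 had 181, 229 and 314 CPM at the lowest, median and highest in FLASH. Levels in the CONV libraries were 79.96, 126, 130.2, 123 and 232.5 CPM, and controls had 105, 182 and 346 CPM. CONV 7 lay within the FLASH range and the other 4 CONV libraries lay below it, while control 4 was the highest library of all. FLASH was higher than CONV by 0.80 ± 0.27 (log2, SE; adjusted p = 0.0464). It differed from control by 0.34 ± 0.26 (adjusted p = 0.315), and CONV differed from control by -0.46 ± 0.28 (adjusted p = 0.226). The FLASH against CONV call was lost without FLASH 1, 2, 6, 7 or 9, without CONV 2, 3, 5 or 6 and without control 3, each left out alone (adjusted p from 0.0518 without FLASH 1 to 0.123 without CONV 2), and without FLASH 1, CONV 6 and control 6 together (adjusted p = 0.0621). It was also lost with the length and GC offset (0.59, adjusted p = 0.0964), with library totals (0.62, adjusted p = 0.117) and with genes of at least 1 count kept (adjusted p = 0.0643).

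Scnn1a encodes the alpha subunit of the epithelial sodium channel ENaC, best known for aldosterone-driven sodium uptake in the distal colon and kidney. It was low in jejunum and rose in FLASH against control. The lowest, median and highest levels were 8.23, 34.2 and 46.9 CPM in FLASH. CONV libraries gave 14.5, 16.2, 17.5, 16.3 and 12.3 CPM, and controls had 6.75, 12.5 and 15.8 CPM. FLASH split widely, with FLASH 4, 5, 6 and 9 at 34.2 to 46.9 CPM, FLASH 7 at 21.0 CPM, and FLASH 1 and FLASH 2 inside the range of the other groups. FLASH libraries were higher than control by 1.25 ± 0.32 (log2, SE; adjusted p = 0.00493). Against CONV the value was 0.94 ± 0.34 (adjusted p = 0.0555). It passed without FLASH 1 (1.10, adjusted p = 0.00938), without FLASH 2 (1.05, adjusted p = 0.0362) and with DESeq2 (adjusted p = 0.0225). It also passed without control 2 (adjusted p = 0.0498) or control 6 (adjusted p = 0.0396). The value was lower with library totals (0.78, adjusted p = 0.111) and with a replicate block (0.68, adjusted p = 0.211). With the length and GC offset it was 0.79 (adjusted p = 0.053). CONV differed from control by 0.31 ± 0.34 (adjusted p = 0.503). The beta and gamma subunits that ENaC needs for full activity were near 0, with Scnn1b at 0 to 0.0355 CPM in FLASH, 0 in CONV and 0 to 0.0745 CPM in controls, and Scnn1g at 0 to 0.497 CPM in FLASH, 0 to 0.174 CPM in CONV and 0 to 0.0298 CPM in controls.

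The list of sodium and hydrogen exchange held 16 other genes, of which 11 were tested. Between FLASH and CONV, 3 were higher and 0 lower. In FLASH against control, 1 was higher and 5 lower, and in CONV against control, 0 were higher and 4 lower. The shares called, 27.3, 54.5 and 36.4% of 11 genes, stood beside 19.8, 37.7 and 22.2% of all genes. Its medians were 0.33, -1.0 and -0.93. Sgk1, a kinase that keeps ENaC and NHE3 at the cell surface and that glucocorticoids and aldosterone induce, had the largest difference of the list in both comparisons of FLASH. It had 290.3, 1657 and 2249 CPM at the lowest, median and highest in FLASH. The CONV libraries had 163.5, 99.95, 92.8, 151.6 and 118 CPM, and controls had 41.2, 103 and 166.5 CPM. Every FLASH library exceeded every other library, FLASH being higher than CONV by 3.56 ± 0.47 (adjusted p = 0.000188) and higher than control by 3.80 ± 0.44 (adjusted p = 4.59e-06), while CONV differed from control by 0.24 ± 0.42 (adjusted p = 0.68).

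Within FLASH, Sgk1 and Scnn1a did not run in parallel. FLASH 2, FLASH 1 and FLASH 7 had the highest Sgk1 levels (2249, 2173 and 1953 CPM) and the lowest Scnn1a levels (14.4, 8.23 and 21.0 CPM). FLASH 4 and FLASH 5 had the lowest Sgk1 levels (290.3 and 574 CPM) with Scnn1a at 34.2 and 45.4 CPM. Length slopes were -0.09 in FLASH 2, -0.34 in FLASH 1 and 0.27 in FLASH 7. They were 0.16 in FLASH 4 and 0.08 in FLASH 5, and the part of transcript length in this pattern was not tested. Of the other genes of the list, Nedd4l encodes the ubiquitin ligase that removes ENaC from the membrane. Nedd4l was higher in FLASH than CONV by 0.58 ± 0.20 (adjusted p = 0.0456). That call was lost without FLASH 2, 6 or 7, CONV 2, 6 or 7 or control 3 (adjusted p up to 0.119). It was also lost with library totals (0.40, adjusted p = 0.231) and with the length and GC offset (0.305, adjusted p = 0.0969). Keeping genes of at least 1 count lost it too (adjusted p = 0.086). The sodium/hydrogen exchanger gene Slc9a8 was higher in FLASH than CONV by 0.74 ± 0.19 (adjusted p = 0.0104), a call lost with library totals (adjusted p = 0.0643). Slc9a9, an endosomal exchanger, fell by 2.03 in FLASH and by 1.38 in CONV against control on the log2 scale (adjusted p = 1.73e-05 and 0.00324). Hsd11b2, which inactivates glucocorticoids so that aldosterone can act, was lower than control in CONV by -1.67 ± 0.35 (adjusted p = 0.00344) and in FLASH by -1.0 ± 0.31 (adjusted p = 0.0161). Slc8a1, a sodium/calcium exchanger, was lower than control in FLASH by -1.31 ± 0.38 (adjusted p = 0.0105). Slc9a7, at 0.245 CPM in CONV and 0.853 CPM in controls, was lower in CONV by -1.74 ± 0.57 (adjusted p = 0.0371), a call lost without control 2 or 5 or CONV 2, 6 or 7 (adjusted p up to 0.134), and the value was -1.08 without control 2.

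Atp1b1 encodes the beta subunit of the sodium pump, which helps the pump reach the basolateral membrane. It lies on chromosome 1 (164437109 to 164458355, - strand, mm10) and was the most abundant of the 9 genes. It had 1018, 1861 and 2567 CPM at the lowest, median and highest in FLASH. Its CONV levels were 1799, 1536, 1809, 2014 and 1417 CPM, and controls had 893, 1157 and 1284 CPM, so that CONV lay wholly above control while FLASH 1 and FLASH 2 fell within the control range. FLASH was higher than control by 0.64 ± 0.20 (log2, SE; adjusted p = 0.0158). CONV differed from control by 0.59 ± 0.21 (adjusted p = 0.051), and FLASH differed from CONV by 0.05 ± 0.20 (adjusted p = 0.896). FLASH 1, 2 and 7, the libraries lowest in Scnn1a, were also the lowest in Atp1b1 (1018, 1191 and 1465 CPM). With library totals the FLASH value against control was 0.28 (adjusted p = 0.24). The CONV value against control passed with DESeq2 (adjusted p = 0.0235). It also passed without FLASH 1 (adjusted p = 0.0289), FLASH 2 (0.0443), FLASH 4 (0.0417) or control 6 (0.0458). It was smaller with library totals (0.37, adjusted p = 0.192) and with the length and GC offset (0.40, adjusted p = 0.171). With a replicate block it was 0.65 (adjusted p = 0.0696).

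Of 12 other sodium pump genes considered here, 10 were tested. None of the 10 was called higher (0 in each comparison), and 1 was lower in FLASH against CONV, 3 in FLASH against control and 2 in CONV against control. These counts were below or near the shares of all genes called (19.8, 37.7 and 22.2%). The list medians were -0.21, -0.49 and -0.34 in that order. Most of those called encode FXYD proteins, small membrane proteins that regulate the pump. Fxyd1, a pump regulator of muscle, averaged 2.90 CPM in FLASH, 5.94 CPM in CONV and 6.48 CPM in controls. It was lower in FLASH than CONV by -1.03 ± 0.28 (adjusted p = 0.0165) and lower than control by -1.16 ± 0.27 (adjusted p = 0.00275). Another regulator, Fxyd6, averaged 5.50 CPM in FLASH and 16.2 CPM in controls, lower by -1.55 ± 0.31 (adjusted p = 0.000862). Atp1b2, a beta subunit best known from the nervous system, averaged 2.83 CPM in FLASH and 5.89 CPM in controls, lower by -1.06 ± 0.41 (adjusted p = 0.0492), a call lost without any of 13 single libraries (adjusted p up to 0.183) and with DESeq2 size factors (0.0554). Fxyd5 and Fxyd2 were lower in CONV than control by -0.67 ± 0.19 and -1.40 ± 0.48 (adjusted p = 0.0211 and 0.0458). Fxyd5 averaged 9.39 CPM in CONV and 14.9 CPM in controls. Fxyd2 was low, at 0.281 CPM in CONV and 0.739 CPM in controls. In FLASH against CONV, the Fxyd1 call was lost without CONV 2 (adjusted p = 0.0563). In CONV against control, the Fxyd5 call was lost without control 2 (adjusted p = 0.0588). The Fxyd2 call was lost without any of 12 single libraries (adjusted p up to 0.12). Keeping genes of at least 1 count also lost both (adjusted p = 0.0676 for Fxyd5 and 0.1 for Fxyd2). The Fxyd2 call was lost too with DESeq2 size factors (adjusted p = 0.051). Without FLASH 1, CONV 6 and control 6 together, its adjusted p was 0.121.

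**Figure D3:**
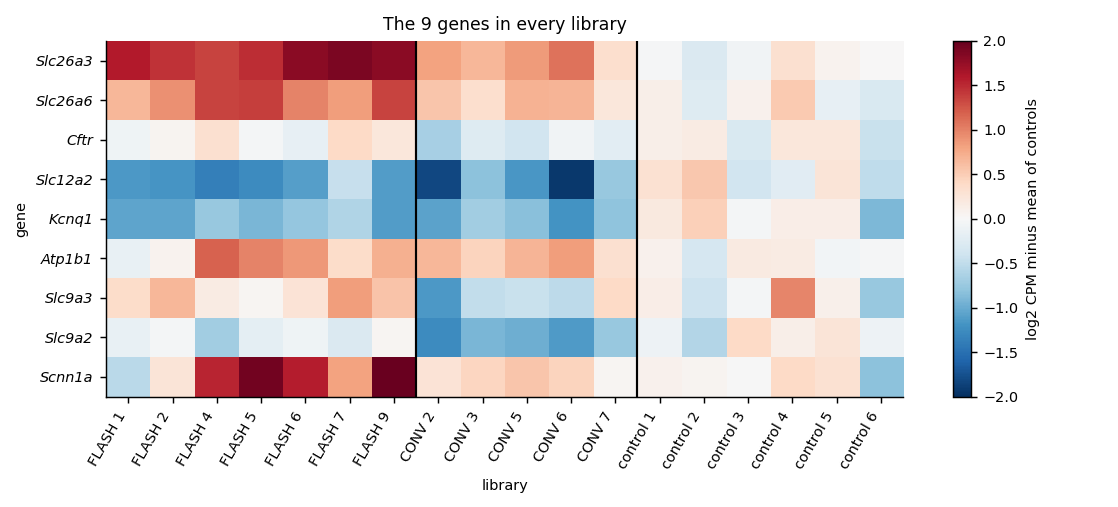
Log2 CPM of the 9 genes (rows) in every library (columns, FLASH, CONV and control from left to right), as the difference from the control mean (colour). Slc26a3 is raised in all 7 FLASH libraries, Slc12a2 and Kcnq1 are lowered in both irradiated groups, and control 6 is low in Kcnq1, Scnn1a and Slc9a3.

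Compared per kilobase of transcript, the order of the 9 genes changed between groups. In FLASH it was Atp1b1 (687 CPM per kb), Slc26a6 (103), Slc26a3 (82.3), Slc9a3 (46.9), Slc9a2 (25.9), Cftr (11.5), Kcnq1 (9.67), Slc12a2 (9.55) and Scnn1a (8.39). In CONV it was Atp1b1 (665), Slc26a6 (68.3), Slc26a3 (45.0), Slc9a3 (27.0), Slc9a2 (14.8), Kcnq1 (9.51), Cftr (8.63), Slc12a2 (8.58) and Scnn1a (4.39). In controls it was Atp1b1 (442), Slc26a6 (48.9), Slc9a3 (37.1), Slc9a2 (30.2), Slc26a3 (26.7), Slc12a2 (20.6), Kcnq1 (18.6), Cftr (10.8) and Scnn1a (3.53). Some neighbours in these orders differed by less than the larger of their SDs. In FLASH these were Slc26a6 and Slc26a3 (a gap of 20.3 against an SD of 20.5 CPM per kb), Kcnq1 and Slc12a2, and Slc12a2 and Scnn1a. In CONV they were Kcnq1 and Cftr, and Cftr and Slc12a2. In controls they were Slc26a6 and Slc9a3, Slc9a3 and Slc9a2, Slc9a2 and Slc26a3, and Slc12a2 and Kcnq1. Slc26a3 was above Slc26a6 in FLASH 1 (79.3 against 75.8 CPM per kb) and FLASH 7 (97.3 against 85.3), so its place after Slc26a6 in FLASH and its place among the exchangers in controls lay within the spread.

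The ratio of an absorptive to a secretory gene within a library needs no scaling between libraries. The ratio of Slc26a3 to Slc12a2, per kilobase, was 6.75, 8.79 and 10.04 at the lowest, median and highest in FLASH. It was 8.17, 3.70, 5.33, 10.7 and 2.84 in the CONV libraries and 0.75, 1.41 and 1.94 in controls. Both irradiated groups lay wholly above control. Since Slc26a3 was called higher and Slc12a2 lower in each, this separation restates those calls and is no independent result. CONV spread more than FLASH, with CONV 6 (10.7) above every FLASH library and CONV 7 (2.84) nearest the controls. CONV 6 and CONV 2, the highest CONV libraries for this ratio, also had the lowest length slopes of their group (-0.43 and -0.32), and Slc12a2 has a transcript of 6520 bases against 3462 for Slc26a3. The part of transcript length in this spread was not tested. The ratio of Slc9a3 to Slc9a2, 2 genes with transcripts of 5118 and 5019 bases, was 1.37, 1.71 and 2.55 at the lowest, median and highest in FLASH, 1.26, 1.70 and 2.62 in CONV, and 0.74, 1.19 and 2.11 in controls, with overlap between all groups.

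**Figure D4:**
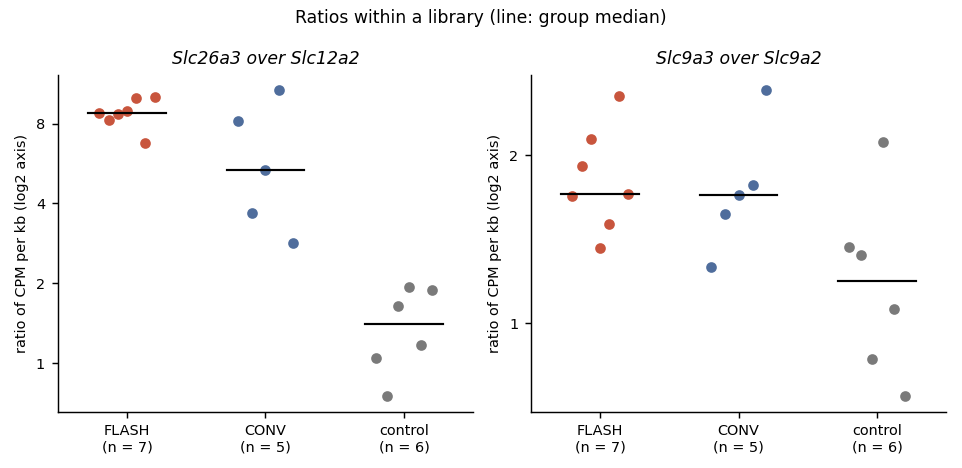
Ratio of CPM per kb of Slc26a3 to Slc12a2 (left) and of Slc9a3 to Slc9a2 (right) in each library on log2 axes, with group medians as lines. The left ratio is 6.75 to 10.04 in FLASH and 2.84 to 10.7 in CONV, above the 0.75 to 1.94 of controls, while the right ratio overlaps between groups.

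Transporter scaffolds and kinases were represented by 16 genes, all of them tested. Between FLASH and CONV, 3 were higher and 1 lower, in FLASH against control, 7 were higher and 1 lower, and in CONV against control, 3 were higher and 1 lower. Of the 16 genes, 4, 8 and 4 were thus called, beside 19.8, 37.7 and 22.2% of all genes. The medians were 0.29, 0.45 and 0.17. Ezr encodes ezrin, which ties NHE3 and CFTR to the microvillus skeleton. It averaged 2512 ± 557 CPM in FLASH (SD, n = 7), 1046 ± 229 CPM in CONV (n = 5) and 915 ± 233 CPM in controls (n = 6). FLASH libraries were higher than CONV by 1.26 ± 0.22 (adjusted p = 0.00106) and than control by 1.46 ± 0.20 (adjusted p = 3.17e-05), with no overlap in either. Guca2a and Guca2b encode guanylin and uroguanylin, peptides that open CFTR and inhibit NHE3 through the receptor guanylate cyclase C, encoded by Gucy2c. Guca2b averaged 2280.0 CPM in FLASH and 1724 CPM in CONV, against 434 CPM in controls, higher by 2.39 ± 0.31 in FLASH (adjusted p = 1.46e-05) and by 1.99 ± 0.32 in CONV (adjusted p = 0.00043), and neither irradiated group overlapped control.

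Guca2a was highest in CONV. It had 246, 401 and 502 CPM at the lowest, median and highest in FLASH, 991, 582, 615, 741 and 416 CPM in the CONV libraries, and 193, 231.5 and 335 CPM in controls. Guca2a was lower in FLASH than CONV by -0.86 ± 0.22 (adjusted p = 0.011), and higher than control in CONV by 1.48 ± 0.23 (adjusted p = 0.000313) and in FLASH by 0.62 ± 0.21 (adjusted p = 0.0282). Gucy2c was higher in FLASH than CONV by 0.72 ± 0.22 (adjusted p = 0.0307). Shank2, a scaffold that binds NHE3 and CFTR, had 0.441, 0.850 and 1.94 CPM at the lowest, median and highest in FLASH, 0.576, 2.86, 2.68, 0.497 and 1.84 CPM in the CONV libraries, and 1.90, 12.3 and 16.0 CPM in controls. Control 6 (1.90 CPM) was again inside the irradiated range. Shank2 was lower than control by -3.21 ± 0.49 in FLASH (adjusted p = 7.63e-05) and by -2.63 ± 0.54 in CONV (adjusted p = 0.00283). For FLASH against CONV, the Guca2a call was lost with the length and GC offset (-0.58, adjusted p = 0.065) and the Gucy2c call without FLASH 5 or CONV 2, 6 or 7 (adjusted p up to 0.0901).

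Receptors for secretagogues and their inhibitors made a list of 20 genes, of which 18 were tested. In FLASH against CONV, 3 were higher and 0 lower, in FLASH against control, 3 were higher and 4 lower, and in CONV against control, 0 were higher and 2 lower. The shares called, 16.7, 38.9 and 11.1%, were near or below those of all genes (19.8, 37.7 and 22.2%). The medians were 0.05, -0.05 and -0.40. Vipr1, a receptor for the secretory neuropeptide VIP, had 281, 385 and 422 CPM at the lowest, median and highest in FLASH, 157, 179, 196, 191 and 187 CPM in the CONV libraries, and 156, 197.5 and 246 CPM in controls. FLASH lay wholly above both other groups. FLASH was higher than CONV by 0.97 ± 0.14 (adjusted p = 0.000349) and than control by 0.86 ± 0.13 (adjusted p = 7.67e-05), and CONV differed from control by -0.11 ± 0.14 (adjusted p = 0.566). The nucleotide receptor P2ry2 was higher in FLASH than control by 1.32 ± 0.28 (adjusted p = 0.00136) and than CONV by 0.92 ± 0.30 (adjusted p = 0.0354), the second lost without FLASH 2, 6 or 7 or CONV 2, 3, 6 or 7 (adjusted p up to 0.0826). The adrenergic receptor Adra2a, whose activation favours absorption, was lower in CONV than control by -1.41 ± 0.33 (adjusted p = 0.00651) and higher in FLASH than CONV by 1.02 ± 0.32 (adjusted p = 0.0318), the second lost without FLASH 2 or 7 or CONV 2, 3, 6 or 7 (adjusted p up to 0.0797). The prostaglandin receptor Ptger1 was lower in FLASH than control by -2.32 ± 0.38 (adjusted p = 0.00014) at levels of 0.328 CPM in FLASH and 1.65 CPM in controls. It was also lower in CONV than control by -1.18 ± 0.40 (adjusted p = 0.0414), a call lost without CONV 2, 5 or 6 or control 1, 2, 4 or 5 (adjusted p up to 0.113).

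Of 10 aquaporin genes, 5 were tested, and Aqp8 was among those with too few reads. Between FLASH and CONV, 0 were called. In FLASH against control, 2 were higher and 0 lower, and in CONV against control, 1 was higher and 1 lower. With 5 genes, these counts are too few to set against the 19.8, 37.7 and 22.2% of all genes called. Aqp11, an aquaporin of internal membranes, averaged 117 ± 25.4 CPM in FLASH (SD, n = 7) and 131 ± 41.0 CPM in CONV (n = 5), against 61.2 ± 16.0 CPM in controls (n = 6), higher by 0.94 ± 0.21 in FLASH (adjusted p = 0.00164) and by 1.10 ± 0.22 in CONV (adjusted p = 0.00228). Aqp7, a glycerol channel, was higher in FLASH than control by 1.30 ± 0.49 (adjusted p = 0.0445), a call lost without FLASH 4, 5, 6 or 9, CONV 2 or 5 or control 2, 3, 4 or 5 (adjusted p up to 0.15), and the value was 0.81 without FLASH 5. Aqp4 was lower in CONV than control by -1.06 ± 0.30 (adjusted p = 0.0181), a call lost without CONV 2 (adjusted p = 0.0556) or CONV 6 (0.0503).

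**Figure D5:**
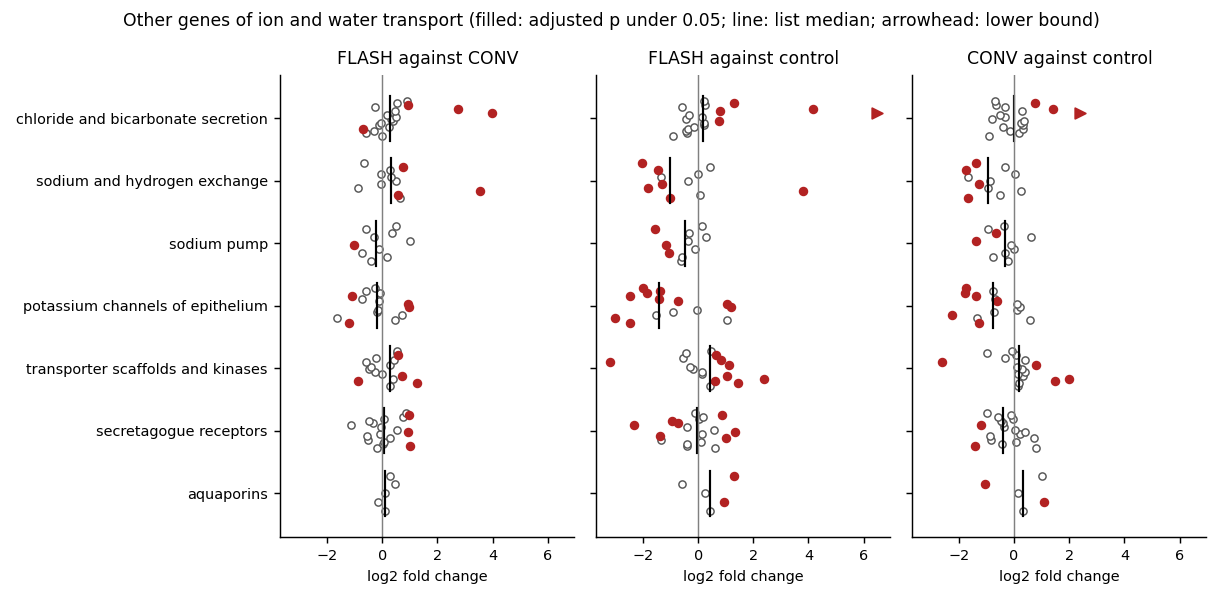
Log2 fold change (horizontal axes, first group over second) of the tested genes of 7 transport lists (rows), without the 9 genes themselves, in the 3 comparisons. Filled points had an adjusted p under 0.05, lines are list medians, and arrowheads mark the lower bounds of Slc26a1 against its control count of 0. Most called potassium channel genes lie left of 0 in both comparisons with control, and Sgk1 lies at 3.56 and 3.80 in the comparisons of FLASH.

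Likeness over all 18 libraries gave each remaining gene its own neighbours, as a description with no test. Slc26a3 was most like G6pc (Pearson r = 0.978), which encodes the glucose-6-phosphatase that releases glucose, and then like Tjap1 and Fam160b1 (0.971 each). G6pc averaged 795 CPM in FLASH, 155 CPM in CONV and 22.3 CPM in controls, a wider span than that of Slc26a3. Slc26a6 was most like Acsl1 (0.954), a fatty acid activating enzyme, followed by Ctsa (0.952) and Sec16b (0.95). Acsl1 averaged 255 CPM in FLASH, 96.8 CPM in CONV and 43.3 CPM in controls. Atp1b1 was most like Tepsin (0.966), Tgoln1 (0.942) and Slc16a10 (0.941), and Scnn1a was most like Ctns (0.926), Fam53b (0.921) and Lipe (0.914). Cftr, Slc9a3 and Slc9a2 had looser neighbours, led by Uvssa (0.871), Secisbp2l (0.911) and H2-Q4 (0.89). Among the 9 genes themselves, Slc26a3 and Slc26a6 had r = 0.885, Slc26a6 and Scnn1a 0.811, Scnn1a and Atp1b1 0.78, and Slc12a2 and Atp1b1 -0.718.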

How the data were processed

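RNA of whole jejunum was read as stranded mRNA libraries from 250 ng of RNA with single-end reads of 100 bases, per the labels' protocols. Per the submitters' processing notes, STAR, Salmon, edgeR 3.40.2, limma 3.54.2 and mm10 were used. The deposited count table held estimated counts per gene, 73.3 to 76.9% of the values above 0 being whole, and was rounded. The deposited log2 table (19193 genes) equalled log2 CPM with 1 effective size per library and served 1 alternative. Groups and numbers came from the labels. All 18 libraries entered 1 edgeR 4.0.16 quasi-likelihood fit (R 4.3.3; filterByExpr, TMM, robust, Benjamini-Hochberg adjustment, threshold 0.05). SEs are the log2 fold change over the root of F. DESeq2 1.42.0, limma 3.58.1, other scalings and filters, a replicate block, a length and GC offset (spline, 4 degrees of freedom) and leaving out libraries were tried. The fit was tested on simulated data. The lowest chi-square per gene between libraries of a group was 25.2, so none was a duplicate. Named were the 9 genes, up to 3 genes with the smallest p per list and comparison, and 3 most similar genes (mean of at least 5 CPM, prior count 2), other genes only as markers, partners or channel subunits. Scnn1b, Scnn1g and the FLASH libraries singled out by Sgk1 were chosen after their values were seen. The 9 genes and the 7 lists were chosen with earlier results of these data known. Of the sodium pump list, 1 gene is not reported here and is left out of its counts and medians. Gene spans and lengths follow GENCODE M21 (mm10), promoters RefSeq (GRCm38.p6). Figures and tables used Python 3.11.15, pandas 2.3.3 and matplotlib 3.10.9.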

Additional observations from a re-analysis of the deposited data

Results flagged for a closer look

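Of 27 sets of values (9 genes in 3 groups), 2 held a library far from the others of its group, where chance alone gives about 1 in 20. Slc12a2 was 94.0 CPM in FLASH 7 and 50.6 to 60.8 CPM in the other FLASH libraries. FLASH 7 also had the highest smooth muscle marker sum of its group (1189 CPM) and the highest fibroblast marker sum (304 CPM). It was highest too for endothelium (312 CPM), neuron, glia and pacemaker cell (38.8 CPM), goblet cell (6325 CPM) and enteroendocrine cell markers (358 CPM). The part of these markers in its Slc12a2 level was not tested. Slc9a3 was 346 CPM in control 4 and 105 to 193 CPM in the other controls.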

How the results depend on the processing

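Over the 9 genes in 3 comparisons, 226 of the values under other settings kept their direction and their side of the threshold, 23 passed it, 12 no longer passed and 9 turned sign; with 1 library left out, these counts were 452, 16, 12 and 6. Of the calls of the other genes named, 486 were kept and 53 were not under other settings. With 1 library left out, 883 were kept and 89 were not. Not every other setting that lost a call is listed with its gene. In FLASH against CONV, 4 of 9 genes passed, and 2 did with library totals, 2 with genes of at least 1 count, 2 with the replicate block, 1 with the length and GC offset (Slc26a3), and 2 to 6 with 1 library left out (2 without CONV 3). Over all genes, 3217 passed in FLASH against CONV and 1569 with the block. In CONV against control, 3615 passed, and 1869 (without CONV 6) to 6493 (without control 6) with 1 library left out, including 2171 without CONV 2, 2277 without control 2 and 2359 without control 5. The cause was not tested. Signs that turned, none of a called value: with library totals, FLASH against CONV for Slc12a2 (-0.037), Atp1b1 (-0.091) and Kcnq1 (-0.147), and FLASH against control for Cftr (-0.28) and Slc9a3 (-0.025). With the offset, Slc12a2 was -0.03 and Kcnq1 -0.013 in FLASH against CONV. Without FLASH 1, CONV 6 and control 6 together, Kcnq1 was -0.008. With 1 library left out, Atp1b1 ranged from -0.026 to 0.148 and Kcnq1 from -0.041 to 0.081. Library totals also moved the median of all genes to -0.18, -0.44 and -0.25 in FLASH against CONV, FLASH against control and CONV against control, and the share of calls that were higher to 24.4, 17.4 and 24.2%, against 49.9, 44.3 and 46.0% with TMM. Same-numbered libraries had correlations of -0.27 to 0.61, the highest being that of CONV 6 and control 6. Of 18 libraries, 4 were closest to their own number, and FLASH 9 had no library of its number to match. The numbers were not taken as pairs. With the block, FLASH against CONV gave 0.45 for Slc26a6 (adjusted p = 0.122), 0.76 for Slc9a3 (0.0954) and -0.048 for Atp1b1, FLASH against control 0.61 for Atp1b1 (0.0545), and CONV against control 0.61 for Slc26a6 (0.0438). Among other genes named, the block also took adjusted p over the threshold in FLASH against CONV for Fxyd1 (0.084), Guca2a (0.0797), Gucy2c (0.0562), Nedd4l (0.074), P2ry2 (0.0624) and Slc26a1 (0.0828), in FLASH against control for Aqp7 (0.29), Atp1b2 (0.259) and Slc8a1 (0.0892), and in CONV against control for Fxyd2 (0.0769), Ptger1 (0.0823), Slc26a1 (0.0965), Slc26a4 (0.108), Slc4a7 (0.0844) and Slc9a7 (0.122). Depth limited genes under a few CPM, among them Slc26a1, Scnn1b and Scnn1g.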
